A study of Mus musculus with 18 samples.

Results

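The SLAM family was followed in bone marrow-derived macrophages (BMDMs) of C57BL/6 (B6) mice and of the C57BL/6.NOD-*Aec1Aec2* (SjSS) mouse, a model of Sjögren's syndrome. Its 9 members, *Slamf1*, *Slamf6*, *Slamf7*, *Slamf8*, *Slamf9*, *Cd48*, *Cd84*, *Cd244* and *Ly9*, were taken by name from the 20615 genes of the RNA-seq table, and all 9 were present and passed the filter on low counts. *Slamf7* set the strains apart most after exposure to apoptotic cells (ACs), reaching 556 ± 47.7 CPM (counts scaled to a common library total; mean ± SD, n = 3) in SjSS and 136 ± 28.2 CPM in B6 BMDMs. After CpG DNA the strains differed among others in *Slamf8* and *Slamf9*, which were lower in SjSS, and in *Cd244*, which was higher. Without treatment *Slamf8*, *Slamf9* and *Cd244* were all lower in SjSS, and the CpG response of *Slamf9* did not differ between the strains past the test. *Slamf8* was at 19.0 ± 3.42 CPM in B6 and 3.33 ± 0.283 CPM in SjSS BMDMs with CpG, *Slamf9* at 127 ± 8.04 and 68.8 ± 13.5 CPM, and *Cd244* at 18.03 ± 0.997 and 30.2 ± 8.14 CPM. *Cd84* was the member whose level fell with both treatments in both strains.

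The 18 samples formed 6 groups of 3, one for each strain without treatment, with ACs and with CpG. All BMDMs came from female mice aged 7 to 12 weeks and had been grown to day 7 in medium with L929 supernatant as the source of M-CSF, so every group, controls included, had been cultured with that factor. AC treated BMDMs had received 5 dexamethasone-killed thymocytes per macrophage for 2 h and were washed and kept for a further 3 h by the labels, while the methods section gives a longer time. CpG treated BMDMs had received 1 µM CpG, a ligand of Toll-like receptor 9, for 6 h. The SjSS mouse carries intervals of the non-obese diabetic (NOD) genome, *Aec1* and *Aec2*, on a B6 background, and the bounds of the intervals are not given in the sources used here. The replicates were described as 3 mice per strain. Thymocytes were collected from mice of both strains. Which strain's thymocytes each AC sample received, and whether the control, AC and CpG samples of one number came from the same mouse, is not stated.

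SLAM receptors are cell surface proteins of the immunoglobulin superfamily, encoded mainly by a cluster on distal chromosome 1. Most bind a copy of themselves on a neighbouring cell, so that macrophages and lymphocytes can recognise one another through them. CD48, a protein held in the membrane by a lipid anchor, is the ligand of CD244 (2B4) and also binds CD2. The tails of SLAMF1, SLAMF6, SLAMF7, CD84, CD244 and LY9 carry tyrosine switch motifs, which recruit the small adaptors SAP and EAT-2 and, in their absence, inhibitory phosphatases. SLAMF8 and SLAMF9 have short tails that lack this motif. In macrophages SLAMF1 and SLAMF8 are known for effects on the phagosome and its NADPH oxidase, and SLAMF7 for a part in phagocytosis together with the integrin Mac-1. The cluster is also known from mouse lupus genetics, since B6 mice carry a version of it that differs from that of most laboratory strains.

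By the GENCODE annotation of GRCm38 (mm10), the build of the deposited table, 7 members lay within one stretch of chromosome 1 and 2 lay further along. *Cd244* spanned bases 171559193 to 171609746 on the plus strand. Within that span, on the minus strand, lay *Ly9* (171588624 to 171607410), and the exons of the pair shared no base. They were followed by *Slamf7* (171632403 to 171653035, minus strand), *Cd48* (171682009 to 171705258, plus strand), *Slamf1* (171767127 to 171801184, plus strand), *Cd84* (171839697 to 171890718, plus strand) and *Slamf6* (171917515 to 171953170, plus strand). *Slamf9* (172475358 to 172478575, plus strand) and *Slamf8* (172581758 to 172590568, minus strand) lay beyond a stretch of unrelated genes. One member overlapped the exons of another gene, since the antisense gene *Gm37787* shared 423 bases with *Slamf7*, 9.24% of its exons. The strandedness of the libraries is not given in the sources used here, so reads from the shared bases cannot be assigned. *Gm37787* itself held 6 to 245 counts summed over the 3 samples of a group, and a mean of at most 1.92 CPM.

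The 250 bases before the transcription start were read for the members from the RefSeq promoter table of GRCm38.p6, which held 8 of the 9 (with *Cd244* under its RefSeq symbol *Cd244a*) and no entry for *Ly9*. Those of *Slamf7*, *Slamf8*, *Slamf9* and *Cd244* are shown because these 4 members had the largest differences between the strains in their responses. Each is printed 5′ to 3′ on the strand of the gene, and capitals mark the letters that matched a searched motif. The windows are chr1:171649000-171649249 (minus strand) for *Slamf7*, chr1:172590569-172590818 (minus strand) for *Slamf8*, chr1:172475110-172475359 (plus strand) for *Slamf9* and chr1:171558943-171559192 (plus strand) for *Cd244*. The *Slamf7* window lies inside the GENCODE span of the gene, which extends further upstream.
Slamf7: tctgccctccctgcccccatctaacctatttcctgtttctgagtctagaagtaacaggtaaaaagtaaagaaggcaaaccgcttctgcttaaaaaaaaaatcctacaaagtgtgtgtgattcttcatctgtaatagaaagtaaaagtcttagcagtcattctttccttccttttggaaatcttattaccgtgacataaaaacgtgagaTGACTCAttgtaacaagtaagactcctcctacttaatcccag
Slamf8: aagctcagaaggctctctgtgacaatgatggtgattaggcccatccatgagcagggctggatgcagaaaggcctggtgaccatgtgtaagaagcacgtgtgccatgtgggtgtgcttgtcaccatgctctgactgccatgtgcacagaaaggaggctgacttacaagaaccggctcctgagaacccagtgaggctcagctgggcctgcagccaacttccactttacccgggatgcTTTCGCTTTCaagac
Slamf9: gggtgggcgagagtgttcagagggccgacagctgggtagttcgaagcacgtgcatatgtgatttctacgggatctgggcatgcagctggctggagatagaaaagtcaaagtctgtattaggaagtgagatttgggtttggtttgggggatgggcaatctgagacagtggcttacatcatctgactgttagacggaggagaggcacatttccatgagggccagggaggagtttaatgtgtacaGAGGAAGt
Cd244: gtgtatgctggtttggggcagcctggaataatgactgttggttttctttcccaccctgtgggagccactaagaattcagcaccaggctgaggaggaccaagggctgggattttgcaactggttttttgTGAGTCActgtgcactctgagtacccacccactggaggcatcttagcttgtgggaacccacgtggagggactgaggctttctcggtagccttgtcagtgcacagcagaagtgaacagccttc

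The motifs were searched on both strands. The interferon-stimulated response element (ISRE) was searched as GAAA followed by NN and GAAA, the STAT site (GAS) as TTC followed by NNN and GAA, and the NF-kB site as GGG followed by NNNNN and CC. AP-1 was searched as TGANTCA and PU.1, a factor that specifies macrophages, as GAGGAAG. The *Slamf8* window held the ISRE letters 15 to 6 bases before the start, on the strand opposite to the one printed. Of all 32851 promoters of the table, 978 (2.98%) held that motif. AP-1 letters lay 42 to 36 bases before the start of *Slamf7* and 122 to 116 bases before that of *Cd244*, and were found in 6.75% of all promoters. PU.1 letters lay 8 to 2 bases before the start of *Slamf9* and were found in 10.6% of all promoters. *Cd84* held AP-1 and NF-kB letters and *Slamf6* held NF-kB letters, which 45.8% of all promoters held. *Slamf1* and *Cd48* matched none of the 5 motifs in this window, and the GAS letters, in 7.02% of all promoters, matched no member. A match describes the letters only, and binding was not measured.

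Library totals ran from 30688288 to 57139640 counts, with a median of 47912516. All 10 macrophage markers were detected, with a summed level of 17490 to 26530 CPM in every sample. Their sum was 20400 to 21250 CPM in untreated, 18050 to 18820 CPM in AC treated and 23500 to 26530 CPM in CpG treated B6 BMDMs, and 17490 to 18190, 21090 to 22250 and 19140 to 20030 CPM in the same order in SjSS BMDMs. With ACs 2 of these markers rose and 6 fell in B6 BMDMs, beside 20% of all tested genes higher and 18.3% lower. In SjSS BMDMs 7 rose and 1 fell, beside 28.6% and 29.4% of all tested genes. The part of these markers in the responses of the SLAM genes was not tested. The 20 T-lineage markers, fixed because the ACs were thymocytes and several SLAM genes are expressed in T cells, summed to 64.3 to 86.2 CPM in untreated and 27.1 to 48.2 CPM in AC treated samples, most of it *Cd28* and *Cd4*. The 18 other T-lineage markers summed to 1.27 to 2.15 CPM in untreated, 2.72 to 4.29 CPM in AC treated and 0.988 to 2.65 CPM in CpG treated samples. They were thus higher with ACs in both strains, and their part in the AC responses of the SLAM genes was not tested. *Trac*, *Rag1* and *Dntt* were at 0 in untreated B6, *Rag1* was at 0 in untreated SjSS and *Themis* was at 0 in AC treated SjSS BMDMs. Over the AC treated samples, *Rag1* held 24 counts in B6 and 3 in SjSS BMDMs, and *Dntt* held 18 and 1. The other T-lineage markers went both ways. *Lck*, with 39 counts in B6 and 86 in SjSS, was higher in SjSS. *Cd8a*, with 26 and 10 counts, and *Trbc1*, with 24 and 10 counts, were higher in B6. Single T-lineage markers thus differed between the strains with ACs in both directions. The 4 dendritic cell markers in the table summed to 0.653 to 0.829 CPM in untreated, 2.36 to 3.30 CPM in AC treated and 1.33 to 1.57 CPM in CpG treated SjSS BMDMs. In B6 BMDMs they summed to 0.709 to 0.753, 0.984 to 1.23 and 1.15 to 1.48 CPM, and their part was not tested either. Most of the rise with ACs in SjSS BMDMs was that of *Xcr1*, from 0.279 ± 0.0850 to 2.13 ± 0.470 CPM. *Zbtb46* went from 0.353 ± 0.121 to 0.515 ± 0.157 CPM, and *Flt3* and *Siglech* were at 0.0790 and 0.0403 CPM with ACs. B cell markers summed to at most 27.8 CPM, neutrophil markers to at most 12.7 CPM, and mast cell and NK cell markers to under 2 CPM in any sample. In these bulk samples, fewer cells that express a gene and less of its RNA per cell cannot be told apart.

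Levels of different members were compared as CPM per kilobase of exon, where the union of a gene's annotated exons is its length. Over the mean of the 6 groups, *Ly9* stood highest at 134 CPM per kb, followed by *Cd48* at 102, *Cd84* at 73.7, *Slamf7* at 56.6 and *Slamf9* at 41.0 CPM per kb. The remaining members were an order of magnitude or more below, with *Slamf8* at 3.05, *Cd244* at 2.20, *Slamf6* at 0.370 and *Slamf1* at 0.0645 CPM per kb. *Cd48* and *Cd84* exchanged places when the longest transcript was used as the length, and the other 7 kept their rank. In untreated B6 BMDMs *Ly9* (104 ± 11.1 CPM per kb) and *Cd84* (101 ± 7.03 CPM per kb) differed by less than their SD. *Slamf9* (19.1 ± 1.45 CPM per kb) and *Slamf7* (17.6 ± 4.40 CPM per kb) differed there by less than the SD of *Slamf7*. In untreated SjSS BMDMs *Cd84* was highest at 99.5 ± 8.33 CPM per kb, above *Ly9* at 81.9 ± 0.913 CPM per kb. The order changed with treatment. *Slamf7* moved from 11.8 ± 0.750 CPM per kb in untreated to 121.5 ± 10.4 CPM per kb in AC treated SjSS BMDMs, between *Ly9* (137 ± 3.18 CPM per kb) and *Cd48* (114 ± 2.21 CPM per kb). Over the same samples *Cd84* moved from first to below *Cd48*, at 69.3 ± 1.65 CPM per kb. In AC treated B6 BMDMs *Slamf7* stood at 29.8 ± 6.16 CPM per kb, below *Cd84* and above *Slamf9*.

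**Figure D1:**
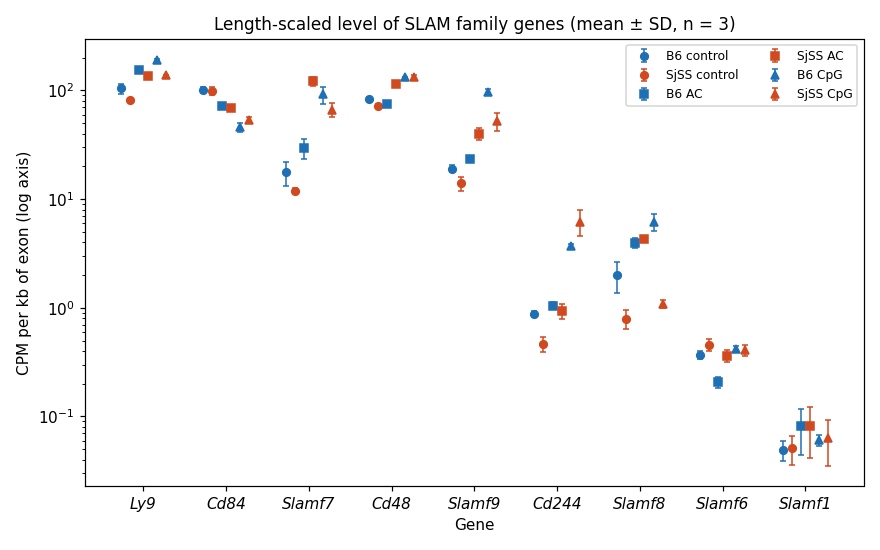
Level of each SLAM family gene in CPM per kilobase of exon, on a log axis, with the 6 groups side by side (points: mean, bars: SD, n = 3, colour: strain, symbol: treatment). The first 5 genes on the axis lay between about 12 and 191 CPM per kb, and *Slamf1* stayed under 0.1 CPM per kb in every group mean.

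The ligand *Cd48* was abundant in all samples. In B6 BMDMs it was at 98.7, 102.9 and 99.3 CPM without treatment, at 86.2, 89.2 and 91.7 CPM with ACs and at 159.5, 154 and 156.6 CPM with CpG. In SjSS BMDMs it was at 89.6, 82.4 and 83.4 CPM without treatment, at 132, 137 and 136 CPM with ACs and at 158, 155 and 166 CPM with CpG. The AC treated samples thus lay below all controls in B6 and above all controls in SjSS. By edgeR's quasi-likelihood test, with p-values adjusted by the Benjamini-Hochberg method over the 15789 genes tested, *Cd48* fell by 0.17 (log2, SE 0.05, adjusted p = 0.00686) with ACs in B6 and rose by 0.67 (SE 0.05, adjusted p = 4.01e-10) in SjSS BMDMs. The difference between these responses, tested as an interaction of strain and treatment, was 0.84 (SE 0.07, adjusted p = 1.08e-08). With CpG *Cd48* rose in both strains, by 0.64 in B6 and 0.91 in SjSS BMDMs (SE 0.05 each, adjusted p = 6.92e-10 and 7.67e-12). The interaction with CpG was 0.26 (SE 0.07, adjusted p = 0.0237). It did not pass with the 4 groups of that comparison alone (adjusted p = 0.0626) or without any 1 of 6 samples (adjusted p = 0.0515 to 0.0711), which were control replicate 2 and CpG replicates 2 and 3 of B6 and control replicates 2 and 3 and CpG replicate 3 of SjSS. Between the strains *Cd48* was lower in untreated SjSS BMDMs, with a log2 difference of -0.24 (SE 0.05, adjusted p = 0.00165), and higher with ACs, with a difference of 0.60 (SE 0.05, adjusted p = 3.49e-09).

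The receptor of CD48 on the same list, *Cd244*, was the member that CpG moved most in SjSS BMDMs. Untreated B6 samples were at 4.37, 4.03 and 4.55 CPM and rose to 19.2, 17.3 and 17.6 CPM with CpG. Untreated SjSS samples were at 1.97, 2.19 and 2.65 CPM and reached 27.0, 24.2 and 39.5 CPM with CpG. All SjSS samples were therefore below all B6 samples before treatment and above them after CpG. The rise was 4.17-fold in B6 (log2 2.06, SE 0.16, adjusted p = 1.12e-09) and 13.3-fold in SjSS BMDMs (log2 3.73, SE 0.17, adjusted p = 1.20e-12), and the interaction was 1.67 (SE 0.23, adjusted p = 0.000247). The strain difference turned from -0.92 without treatment (SE 0.18, adjusted p = 0.00112) to 0.75 with CpG (SE 0.14, adjusted p = 0.00101).

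ACs moved *Cd244* less. AC treated samples were at 4.71, 5.11 and 5.46 CPM in B6 and at 4.29, 3.95 and 5.32 CPM in SjSS BMDMs, and the strains overlapped. The change was 0.24 in B6 (SE 0.16, adjusted p = 0.276) and a rise of 0.99 in SjSS BMDMs (SE 0.18, adjusted p = 9.30e-05). Their difference of 0.75 (SE 0.24) passed the test with an adjusted p of 0.0188, but not without SjSS control replicate 1 (adjusted p = 0.0582) or SjSS AC replicate 3 (adjusted p = 0.0620). *Cd2*, the other receptor for CD48 and a gene of T and NK cells, had too few counts to be tested.

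*Slamf7*, a self-ligand receptor also called CRACC, had the largest AC response of the family. Untreated samples were at 57.8, 95.9 and 88.1 CPM in B6 and at 57.7, 53.0 and 51.1 CPM in SjSS BMDMs. With ACs the B6 samples were at 104.5, 147 and 158 CPM and the SjSS samples at 568, 504 and 597 CPM. The lowest AC treated SjSS sample was thus above every other sample of the study, CpG treated ones included, since those were at 339, 481 and 443 CPM in B6 and at 327, 252 and 337 CPM in SjSS BMDMs. With ACs *Slamf7* rose 1.69-fold in B6 (log2 0.76, SE 0.17, adjusted p = 0.00171) and 10.3-fold in SjSS BMDMs (log2 3.37, SE 0.19, adjusted p = 1.20e-11), and the interaction of 2.60 (SE 0.25, adjusted p = 1.14e-07) was the largest of the family. The rise with CpG was 5.23-fold in B6 (SE 0.18 on the log2 scale, adjusted p = 1.12e-09) and 5.66-fold in SjSS BMDMs (SE 0.18 on the log2 scale, adjusted p = 8.93e-10), and the interaction with CpG was 0.11 (SE 0.24, adjusted p = 0.851).

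The strain difference of *Slamf7* was 2.03 with ACs (SE 0.18, adjusted p = 1.76e-08). Without treatment it was -0.58 (SE 0.18, adjusted p = 0.0262), and the lowest B6 sample was next to the highest SjSS sample. That difference did not pass without control replicate 2 or 3 of B6 or control replicate 2 or 3 of SjSS (adjusted p = 0.0718 to 0.139). With CpG the difference was -0.46 (SE 0.17, adjusted p = 0.0639), which passed with DESeq2's size factors (adjusted p = 0.0483) and without B6 AC replicate 1, B6 control replicate 1 or B6 CpG replicate 1 (adjusted p = 0.0269 to 0.0420). The antisense gene *Gm37787*, which shares bases with *Slamf7*, rose with ACs in SjSS BMDMs (log2 3.94, SE 0.80, adjusted p = 0.000328). Its change in B6 was 0.96 (SE 0.58, adjusted p = 0.211). Untreated it was at 0.305 ± 0.0709 CPM in B6 and 0.0403 ± 0.0128 CPM in SjSS BMDMs, and its strain difference with ACs was 0.20 (SE 0.55, adjusted p = 0.784).

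*Ly9*, a receptor of lymphocytes and macrophages that binds itself, rose with both treatments in both strains. Untreated samples were at 306, 379 and 351 CPM in B6 and at 273.0, 272 and 267 CPM in SjSS BMDMs. With ACs they were at 485, 546 and 497 CPM in B6 and at 442, 462 and 458 CPM in SjSS BMDMs. With CpG they were at 623, 643 and 629 CPM in B6 and at 454, 452 and 458 CPM in SjSS BMDMs. All treated samples were above all untreated ones, and within each treatment all SjSS samples were below all B6 samples. The log2 rises were 0.56 with ACs and 0.87 with CpG in B6 (SE 0.06 each, adjusted p = 1.04e-06 and 6.70e-10) and 0.74 and 0.75 in SjSS BMDMs (SE 0.06 each, adjusted p = 6.16e-09 and 7.82e-09). Neither interaction passed the test, with 0.18 for ACs (SE 0.09, adjusted p = 0.114) and -0.12 for CpG (SE 0.09, adjusted p = 0.473). The interaction with ACs passed without B6 control replicate 1 (adjusted p = 0.0124).

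The strain difference of *Ly9* was -0.35 without treatment (SE 0.06, adjusted p = 0.000692) and -0.47 with CpG (SE 0.06, adjusted p = 2.69e-05). With ACs it was -0.17 (SE 0.06, adjusted p = 0.0354). The difference with ACs did not pass with DESeq2 (adjusted p = 0.0570) or with its size factors in edgeR (adjusted p = 0.0712). Nor did it pass without B6 AC replicate 2 or any 1 AC sample of SjSS (adjusted p = 0.0545 to 0.186).

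*Cd84*, a self-ligand receptor of macrophages, platelets and lymphocytes, fell in every treated group. It was at 614, 685 and 604 CPM in untreated B6 and 678.5, 618.5 and 574.5 CPM in untreated SjSS BMDMs. With ACs it was at 450, 455 and 462 CPM in B6 and at 438, 442.5 and 423 CPM in SjSS BMDMs, and with CpG at 259, 299 and 309 CPM in B6 and 356, 343 and 309 CPM in SjSS BMDMs. In each strain the 3 treatments formed 3 separate ranges, in the order control, AC, CpG. It fell by 0.48 and 0.52 with ACs in B6 and SjSS BMDMs (SE 0.07 each, adjusted p = 4.28e-05 and 6.03e-06) and by 1.14 and 0.89 with CpG (SE 0.07 each, adjusted p = 1.63e-10 and 6.30e-09). The interactions were -0.04 for ACs (SE 0.10, adjusted p = 0.785) and 0.24 for CpG (SE 0.10, adjusted p = 0.194). A strain difference passed the test only with CpG, where it was 0.22 (SE 0.07, adjusted p = 0.0445). It did not pass with DESeq2's size factors (adjusted p = 0.0615), with the CpG groups alone (adjusted p = 0.102) or without any 1 of 11 samples (adjusted p = 0.0529 to 0.212). Those samples were all AC samples of both strains, CpG replicates 1 and 2 of each strain and SjSS control replicate 2.

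*Slamf6*, known as a self-ligand receptor of T, B and NK cells, was low in BMDMs and fell with ACs. It was at 4.31, 3.65 and 4.12 CPM in untreated B6 and at 2.40, 1.93 and 2.36 CPM in AC treated B6 BMDMs, which do not overlap. It was at 4.88, 5.59 and 4.39 CPM in untreated SjSS and at 3.72, 4.48 and 3.61 CPM in AC treated SjSS BMDMs, which overlap. The fall was 0.85 in B6 (SE 0.14, adjusted p = 6.71e-05) and 0.32 in SjSS BMDMs (SE 0.13, adjusted p = 0.0459). The fall in SjSS did not pass with DESeq2 (adjusted p = 0.0747), with its size factors (adjusted p = 0.0651) or without the filter (adjusted p = 0.0577). Nor did it pass with the 2 groups alone (adjusted p = 0.0640) or in 12 of 18 fits that left out 1 sample (adjusted p = 0.0509 to 0.191). These 12 samples were AC replicates 1 and 3, control replicate 3 and CpG replicates 1, 2 and 3 of B6, and AC replicates 1 and 3, control replicates 1 and 2 and CpG replicates 2 and 3 of SjSS.

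The difference between the 2 AC responses of *Slamf6* was 0.53 (SE 0.19, adjusted p = 0.0356). It did not pass without B6 AC replicate 2, SjSS AC replicate 2, or control replicate 1 or 3 of either strain (adjusted p = 0.0622 to 0.112). After ACs the gene was 0.82 higher in SjSS than in B6 BMDMs (SE 0.14, adjusted p = 7.93e-05), and the samples of the strains did not overlap. CpG treated samples, at 4.70, 4.63 and 4.24 CPM in B6 and 3.85, 4.62 and 4.73 CPM in SjSS BMDMs, overlapped the untreated ones in both strains, with adjusted p of 0.301 and 0.311.

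*Slamf1*, the receptor that gave the family its name, was near the limit of detection. Between 7 and 40 counts were assigned to it per sample, or 0.207 to 0.757 CPM, and the groups overlapped in every comparison. In AC treated B6 BMDMs it was at 0.318, 0.757 and 0.423 CPM, against 0.320, 0.355 and 0.231 CPM without treatment. AC treated SjSS samples, at 0.568, 0.231 and 0.718 CPM, were as widely spread. Its log2 changes were 0.73 with ACs in B6 (SE 0.44, adjusted p = 0.216) and 0.65 in SjSS BMDMs (SE 0.45, adjusted p = 0.234), and no comparison passed the test.

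Of the members with short tails, *Slamf8* had the largest strain differences without treatment and with CpG. Untreated samples were at 4.45, 5.70 and 8.30 CPM in B6 and at 1.90, 2.60 and 2.83 CPM in SjSS BMDMs. With ACs both strains reached the same range, 10.8, 12.75 and 13.0 CPM in B6 and 13.2, 12.5 and 13.8 CPM in SjSS BMDMs. With CpG the B6 samples were at 15.1, 20.5 and 21.5 CPM, while the SjSS samples, at 3.64, 3.09 and 3.27 CPM, stayed within 2 CPM of their controls. The strains overlapped with ACs and lay wholly apart in the other treatments. The log2 difference of SjSS from B6 was -1.34 without treatment (SE 0.20, adjusted p = 0.000121), 0.11 with ACs (SE 0.17, adjusted p = 0.622) and -2.51 with CpG (SE 0.19, adjusted p = 3.69e-08).

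As a response, *Slamf8* rose 1.98-fold in B6 (log2 0.99, SE 0.18, adjusted p = 0.000209) and 5.41-fold in SjSS BMDMs (log2 2.43, SE 0.20, adjusted p = 3.24e-09) with ACs, with an interaction of 1.45 (SE 0.27, adjusted p = 0.000271). With CpG it rose by 1.63 in B6 (SE 0.18, adjusted p = 2.03e-07), while the change in SjSS BMDMs was 0.46 (SE 0.21, adjusted p = 0.0800), a rise that passed with DESeq2 (adjusted p = 0.0453) and without B6 control replicate 1 or 3 (adjusted p = 0.0455 and 0.0324). The interaction with CpG was -1.18 (SE 0.28, adjusted p = 0.0163), and it did not pass with the 4 groups alone (adjusted p = 0.0526) or without SjSS control replicate 3 (adjusted p = 0.0616). The AC and CpG responses of a strain share their control samples.

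*Slamf9*, the other member without a signalling tail, is expressed by macrophages and dendritic cells. Untreated samples were at 23.8, 24.1 and 27.3 CPM in B6 and at 16.1, 17.9 and 21.4 CPM in SjSS BMDMs. With ACs they were at 29.3, 31.9 and 32.0 CPM in B6 and at 48.2, 49.0 and 60.6 CPM in SjSS BMDMs, so the order of the strains turned over. With CpG they were at 136, 124 and 120.2 CPM in B6 and at 64.7, 57.8 and 83.8 CPM in SjSS BMDMs, again with B6 above. None of these strain comparisons had overlapping samples. ACs raised it 2.84-fold in SjSS BMDMs (log2 1.51, SE 0.13, adjusted p = 4.81e-09), while the change in B6 was 0.31 (SE 0.12, adjusted p = 0.0569), and the interaction was 1.20 (SE 0.18, adjusted p = 2.44e-05). The B6 change passed with DESeq2 (adjusted p = 0.0439), with the 2 groups alone (adjusted p = 0.00803) and without any 1 of 6 samples (adjusted p = 0.0218 to 0.0484), which were B6 control replicate 3, SjSS control replicates 1 and 3, SjSS AC replicate 3 and SjSS CpG replicates 2 and 3.

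CpG raised *Slamf9* by 2.34 in B6 (SE 0.13, adjusted p = 7.80e-12) and 1.89 in SjSS BMDMs (SE 0.13, adjusted p = 2.69e-10). The interaction with CpG was -0.44 (SE 0.17, adjusted p = 0.147), and it passed without SjSS CpG replicate 3 (adjusted p = 0.0198). The strain difference was -0.44 without treatment (SE 0.13, adjusted p = 0.0199), 0.76 with ACs (SE 0.12, adjusted p = 4.09e-05) and -0.88 with CpG (SE 0.12, adjusted p = 3.22e-05). The first of these was lost without B6 control replicate 3 or SjSS control replicate 1 or 2 (adjusted p = 0.0628 to 0.0905).

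**Figure D2:**
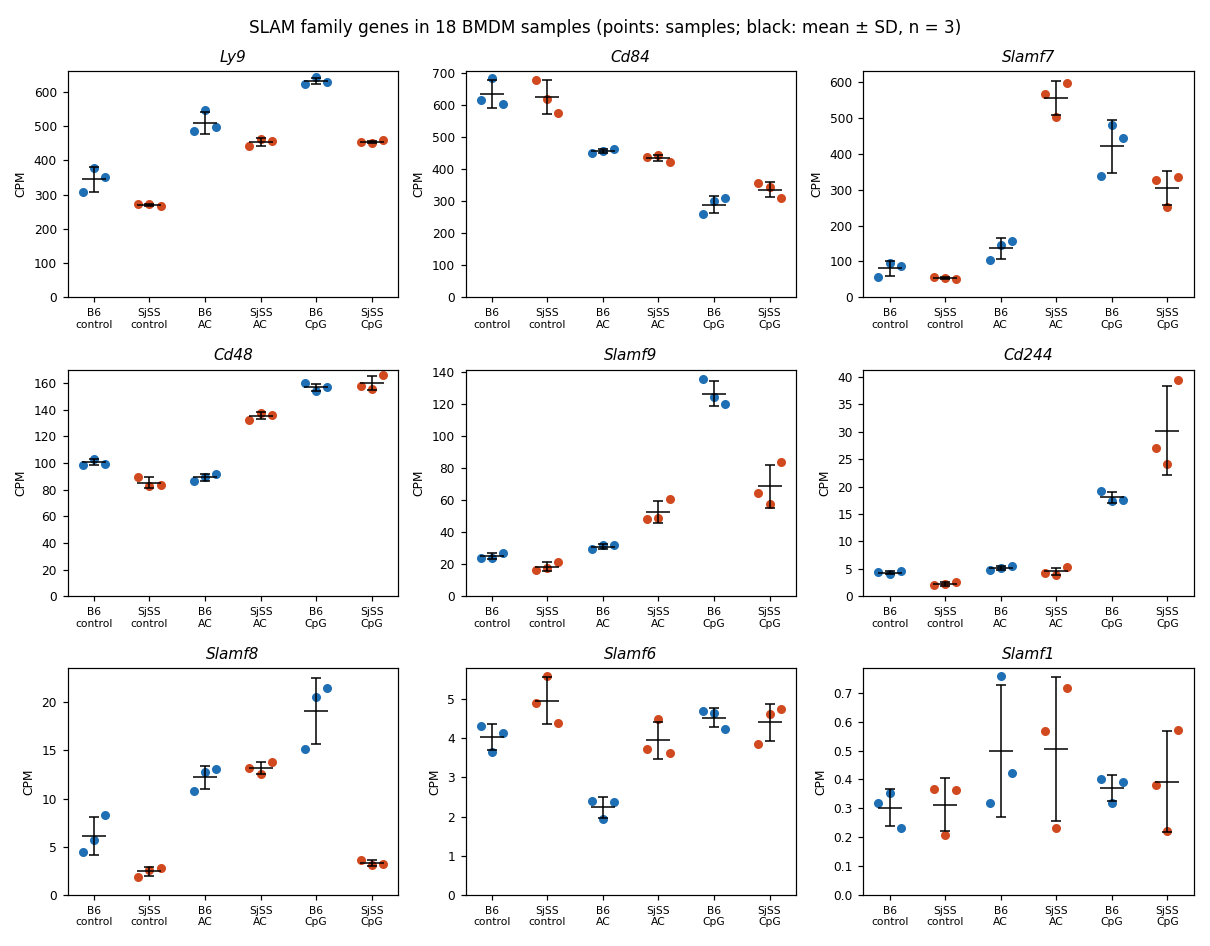
Level of each SLAM family gene in CPM, one panel per gene, in the 18 samples (points: samples, blue: B6, orange: SjSS, black: mean ± SD, n = 3; each axis starts at 0). Among other cases, the strains lie apart for *Slamf7* and *Slamf9* with ACs and for *Slamf8*, *Slamf9* and *Cd244* with CpG. *Cd84* steps down from control to AC to CpG in both strains.

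Over the family, ACs raised 3 members (*Slamf7*, *Slamf8* and *Ly9*) and lowered 3 (*Slamf6*, *Cd84* and *Cd48*) in B6 BMDMs at an adjusted p under 0.05, beside 20% of all tested genes higher and 18.3% lower. In SjSS BMDMs ACs raised 6 members and lowered 2, beside 28.6% and 29.4% of all genes. With the added fold threshold of the study, a log2 change over 1.3 in size, none was called in B6 (2.43% of all genes higher and 2.04% lower), and 3 were called in SjSS, *Slamf7*, *Slamf8* and *Slamf9*, all higher (7.09% of all genes higher and 5.83% lower). The median log2 change of the 9 members was 0.31 in B6 and 0.74 in SjSS BMDMs, beside 0.00 and -0.02 over all genes. The interaction of strain and ACs passed for 6 members, all with a higher response in SjSS (19.6% of all genes passed in that direction and 18.3% in the other), and was over 1.3 for *Slamf7* and *Slamf8* (4.76% of all genes called higher and 2.77% lower). *Cd84*, *Ly9* and *Slamf1* were the members without a difference past the test. Of the 10 macrophage markers, 7 passed the same test with a higher and 0 with a lower response in SjSS. The control and AC samples did not overlap for 8 members in B6 and 7 in SjSS BMDMs, as for 49.9% and 63.9% of all genes. *Slamf1* overlapped in both strains and *Slamf6* in SjSS.

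CpG raised 6 members in B6 and 5 in SjSS BMDMs, beside 28.1% and 27.8% of all genes, and lowered 1, *Cd84*, in each, beside 29.8% and 26.4% of all genes. *Slamf7*, *Slamf9* and *Cd244* were called with the fold threshold in both strains and *Slamf8* in B6 (5.86% of all genes called higher and 6.88% lower in B6, 4.81% higher and 4.45% lower in SjSS). The interaction with CpG passed for *Cd48* and *Cd244*, with a higher response in SjSS, and for *Slamf8*, with a lower one (3.23% and 2.62% of all genes in these directions), and only *Cd244* was past the fold threshold (0.285% of all genes called higher and 0.329% lower). The median change of the members was 0.87 in B6 and 0.75 in SjSS BMDMs, beside -0.04 and -0.01 over all genes. In each strain 7 members had no overlap between control and CpG samples, as had 61.6% and 60.5% of all genes, and those with overlap were *Slamf1* and *Slamf6*.

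**Figure D3:**
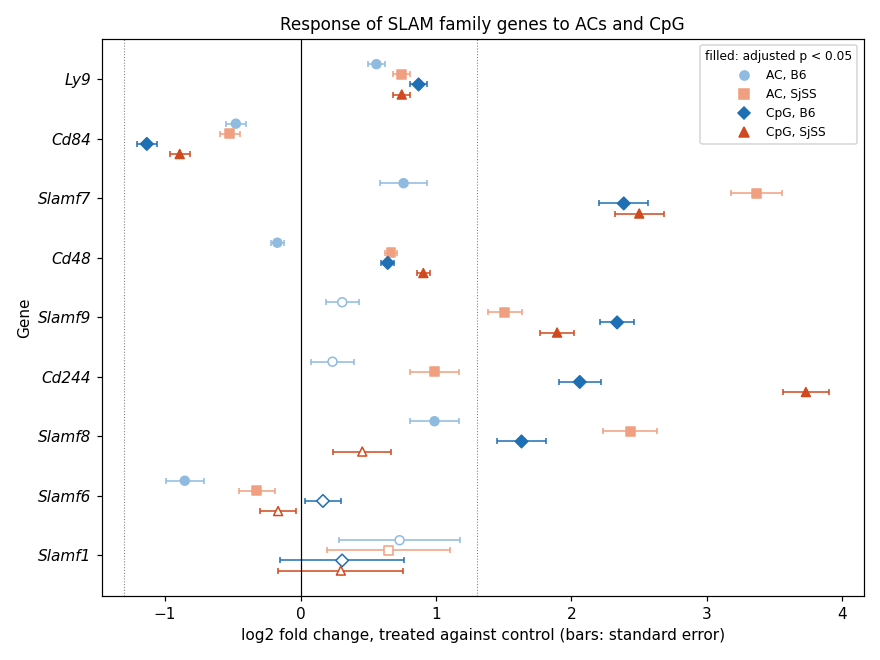
Log2 fold change of each SLAM family gene with ACs and with CpG against the untreated samples of the same strain (points: edgeR estimate, bars: SE, filled: adjusted p < 0.05, dotted lines: 1.3 in either direction). The AC points of SjSS lie right of those of B6 for *Slamf7* (3.37 against 0.76), *Slamf8*, *Slamf9*, *Cd48* and *Cd244*, and the CpG points of *Slamf8* lie in the opposite order.

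Between untreated BMDMs of the strains, 6 members were lower in SjSS, *Slamf7*, *Slamf8*, *Slamf9*, *Cd48*, *Cd244* and *Ly9*, and none was higher, beside 10.6% of all genes lower and 9.04% higher. With the fold threshold *Slamf8* alone was called (0.716% of all genes called lower and 1.3% higher), and it fell short of the threshold without B6 control replicate 3 (-1.05) or SjSS control replicate 1 (-1.17). With ACs 4 members were higher in SjSS, *Slamf6*, *Slamf7*, *Slamf9* and *Cd48*, and *Ly9* was lower, beside 24% and 25.5% of all genes. With CpG *Cd84* and *Cd244* were higher and *Slamf8*, *Slamf9* and *Ly9* lower, beside 10.2% and 9.57% of all genes. With the fold threshold 1 member was called higher with ACs, *Slamf7* (6.24% of all genes called higher and 2.69% lower), and 1 lower with CpG, *Slamf8* (0.792% of all genes called lower and 1.82% higher). The members' median strain difference was -0.35 without treatment, 0.11 with ACs and -0.04 with CpG, beside -0.01, -0.05 and 0.01 over all genes. The strains did not overlap for 7, 6 and 6 members in these treatments, as for 34.4%, 60.7% and 34.2% of all genes. The 3 strain comparisons and the responses share samples, so their values are not independent of one another.

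**Figure D4:**
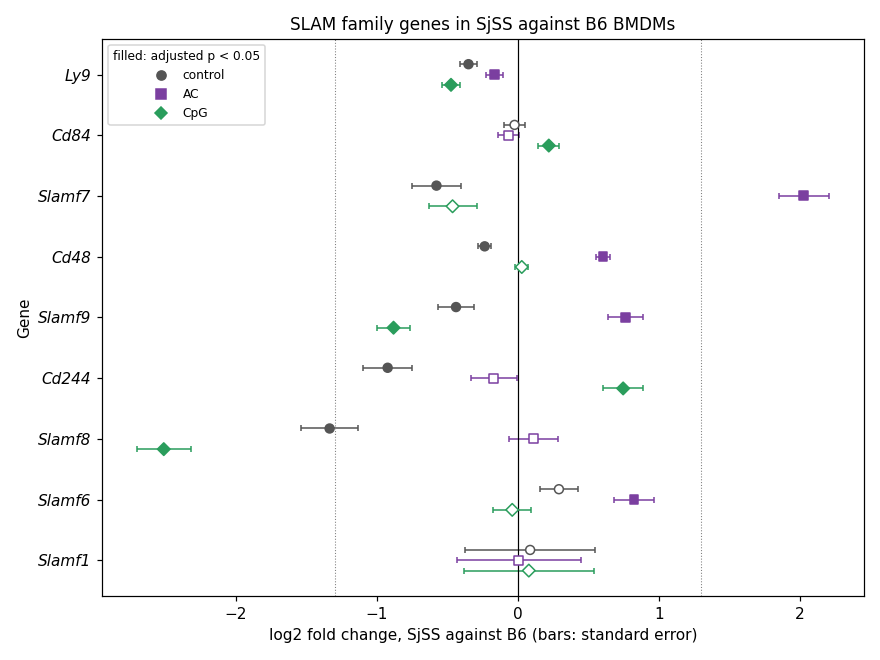
Log2 fold change of SjSS against B6 for each SLAM family gene in untreated, AC treated and CpG treated BMDMs (points: edgeR estimate, bars: SE, filled: adjusted p < 0.05, dotted lines: 1.3 in either direction). *Slamf7* ranges from -0.58 without treatment to 2.03 with ACs, and *Slamf8* reaches -2.51 with CpG but 0.11 with ACs.

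Across the 18 samples, the members whose log2 CPM went together most closely were *Slamf9* and *Cd48* (Pearson r = 0.908), *Slamf7* and *Cd48* (r = 0.857) and *Slamf7* and *Slamf9* (r = 0.856). *Cd84* ran opposite to most of the family, with r = -0.952 against *Slamf9* and -0.871 against *Cd244*. The samples fall into 6 groups and share their libraries across genes, so these values describe the pattern of the group means more than 18 separate points. Among 12293 genes with a mean of at least 1 CPM, the pair most like each member outside the family was *Acot9* (r = 0.985) and *Slc15a3* (0.983) for *Slamf7*, *Gpr85* and *Susd6* (both 0.985) for *Slamf9*, *Aoah* (0.987) and *Ccdc71l* (0.972) for *Cd48*, and *Slc17a5* (0.993) and *Mr1* (0.989) for *Cd84*. *Spic* (0.973) and *Cops5* (0.968) were nearest to *Ly9*, and *Prkcb* (0.975) and *E130012A19Rik* (0.968) to *Cd244*. *Slamf8* was most like *Mnda* (0.942) and *Tagln2* (0.930), of which *Tagln2* lies between *Slamf9* and *Slamf8* on chromosome 1. *Slamf6* had the weakest nearest pair, *Anxa3* (0.909) and *Itgax* (0.891), and *Slamf1* was left out because its mean was under 1 CPM. With Spearman's correlation 3 of the 16 pairs were chosen again.

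Of the 3 adaptor genes listed for SLAM receptors, 1 was found by name among the genes of the RNA-seq table, *Sh2d1b1*, which encodes EAT-2. The others, among them *Sh2d1a* for SAP, were not found and could not be followed. The values below are those of *Sh2d1b1*. It was at 4.42 ± 0.810 CPM in untreated, 2.03 ± 0.329 CPM in AC treated and 4.25 ± 0.146 CPM in CpG treated B6 BMDMs. In SjSS BMDMs it was at 1.88 ± 0.358, 0.490 ± 0.190 and 1.01 ± 0.239 CPM in the same order, lower than in B6 each time. With ACs it fell by 1.12 in B6 (SE 0.21, adjusted p = 0.000342) and by 1.96 in SjSS BMDMs (SE 0.27, adjusted p = 3.32e-06), the reverse direction to *Slamf7*. The strain difference was -1.22 without treatment (SE 0.21, adjusted p = 0.000570), -2.06 with ACs (SE 0.26, adjusted p = 2.88e-06) and -2.06 with CpG (SE 0.23, adjusted p = 4.54e-06). Its interactions were -0.84 with each treatment and did not pass (adjusted p = 0.0604 and 0.131).

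Of the 9 kinases listed for the pathway, 4 rose and 1 fell with ACs in B6 BMDMs, beside 20% of all genes higher and 18.3% lower. In SjSS BMDMs 7 rose and 2 fell with ACs, beside 28.6% and 29.4% of all genes. With CpG 8 rose and 1 fell in B6, beside 28.1% and 29.8% of all genes, and 6 rose and 1 fell in SjSS BMDMs, beside 27.8% and 26.4%. *Fgr*, a Src family kinase of myeloid cells, was the kinase called with ACs in B6, where it went from 21.6 ± 3.59 to 57.02 ± 1.33 CPM. With CpG *Lyn* and *Syk* were called in both strains and *Fgr* in B6. The interaction with ACs passed for 5 kinases with a higher and 3 with a lower response in SjSS, beside 19.6% and 18.3% of all genes, and the median over the kinases was 0.34, beside -0.01 over all genes.

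Of the 4 phosphatases that can bind SLAM tails or act on their kinases, 2 rose and 1 fell with ACs in B6, and 3 rose and 1 fell in SjSS BMDMs and with CpG in either strain. Of the 15789 genes tested, 20% rose and 18.3% fell with ACs in B6 and 28.6% and 29.4% in SjSS BMDMs, with CpG 28.1% and 29.8% in B6 and 27.8% and 26.4% in SjSS BMDMs. The one past the fold threshold was *Ptpn6* (SHP-1), at 270 ± 13.9 CPM in untreated and 735 ± 46.8 CPM in CpG treated B6 BMDMs. Of the 10 phagosome partners of SLAMF1 and SLAMF8, namely the class III phosphoinositide 3-kinase complex and the NADPH oxidase, 5 rose and 5 fell with ACs in SjSS and 4 rose and 4 fell in B6 BMDMs, beside the same shares of all genes. *Cybb*, the catalytic subunit of that oxidase, was at 912 ± 45.2 CPM in untreated and 2953 ± 122 CPM in AC treated SjSS BMDMs, against 1277 ± 70.6 and 1465 ± 119 CPM in B6, and its response was 2.82-fold higher in SjSS BMDMs (interaction, log2 SE 0.09, adjusted p = 3.72e-10). *Uvrag*, a part of the lipid kinase complex, was called lower with CpG in B6, where it went from 111 ± 2.63 to 40.4 ± 1.13 CPM. Of the 4 phagocytosis partners of SLAMF7, 1 had a higher AC response in SjSS past the test (19.6% of all genes), and none was called with the fold threshold in any comparison.

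The other genes whose start lay within 500 kb of a member's start were counted beside the members. There were 60 in the table, of which 50 were tested. In untreated BMDMs 12 were higher and 18 lower in SjSS, and 5 and 6 of these were called with the fold threshold. A difference past the test was thus found for 30 of 50 neighbours and 6 of 9 members, beside 19.6% of all genes. With ACs 15 were higher and 21 lower, beside 24% and 25.5% of all genes, and with CpG 9 were higher and 19 lower, beside 10.2% and 9.57%. The largest called differences without treatment were in *Itln1*, at 0.00695 ± 0.0120 CPM in B6 and 0.235 ± 0.108 CPM in SjSS BMDMs, and in *Cfap45* and *Vsig8*, which lie between *Slamf9* and *Slamf8*. *Cfap45* was at 1.08 ± 0.107 CPM in B6 and 0.134 ± 0.1 CPM in SjSS BMDMs, and *Vsig8* at 1.02 ± 0.147 and 0.107 ± 0.0759 CPM, so all 3 rest on low counts. The reads of both strains had been aligned to the B6 reference, and the part of sequence differences between the strains in these values was not tested.

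The responses of the neighbours were counted in the same way. The interaction of strain and ACs passed for 16 neighbours with a higher and 7 with a lower response in SjSS, out of 50, and for 6 and 0 members out of 9, beside 19.6% and 18.3% of all genes. The interaction with CpG passed for 3 neighbours, all lower (2.62% of all genes). Their median change was -0.08 with ACs in B6 and 0.02 in SjSS BMDMs, beside 0.31 and 0.74 for the members.

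**Figure D5:**
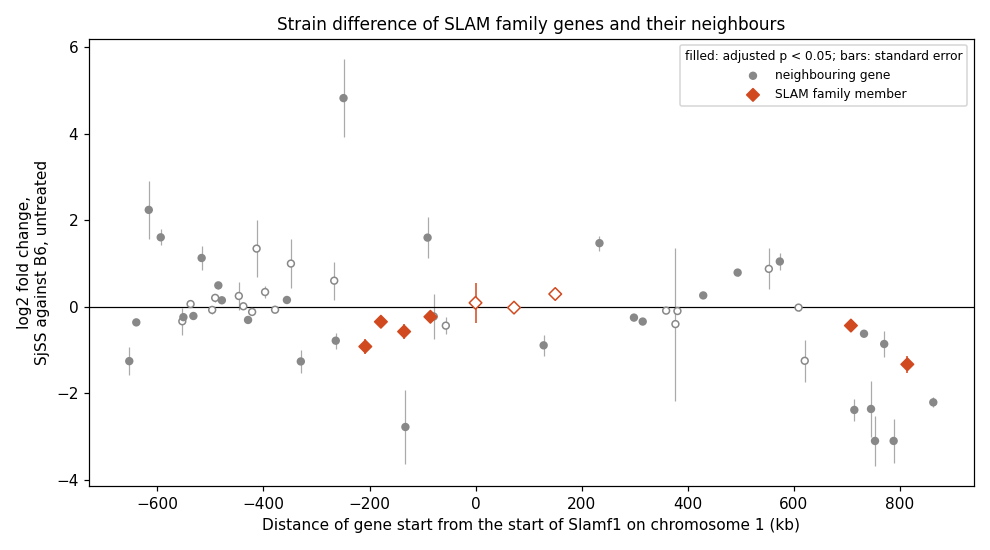
Log2 fold change of SjSS against B6 in untreated BMDMs for SLAM family genes (orange diamonds) and the other tested genes within 500 kb of one (grey points), by distance of the gene's start from that of *Slamf1* (bars: SE, filled: adjusted p < 0.05). The 6 filled members all lie below 0, and filled neighbours lie on both sides, with *Itln1* highest at 4.82 and *Cfap45* and *Vsig8* lowest at -3.11.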

How the data were processed

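RNA of 18 BMDM samples had been sequenced as paired-end reads. Per the study's methods and the labels, the authors aligned the reads of both strains to mm10 with STAR in Partek Flow and quantified them per gene with its expectation-maximization tool. The deposited values are estimated counts per gene, of which 41.1% were not whole numbers, and they were rounded before testing. Sample totals of 30688288 to 57139640 counts set the precision, and the spread was measured over 3 samples per group. Kit strandedness and STAR's settings are not given in the sources used here. 

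Genes were filtered with filterByExpr of edgeR 4.0.16 (R 4.3.3), scaled by TMM and tested with its quasi-likelihood F test in 1 fit over the 6 groups, with Benjamini-Hochberg adjustment over 15789 genes, for 9 comparisons. A gene "rose", "fell" or "passed" at an adjusted p under 0.05, and was "called" when its log2 change was also over 1.3 in size, the thresholds of the study. CPM are counts scaled to a common library total after TMM, and log2 CPM used a prior count of 2. Groups did not overlap when every sample of one lay above every sample of the other. The procedure was run on simulated data in which some genes were raised in the AC treated SjSS samples only. The simulated samples were independent and had no added difference in scaling, so that run does not bear on pairing or on the scaling of these data.

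The members and the gene lists were chosen with earlier results of these data known. All 9 members were described. Of the listed partners, genes called in any of the 9 comparisons were named, except 1 kinase that is not reported here. Of the neighbours, the 3 with the largest called difference between untreated strains were named, and of similar genes the nearest 2 to each member. *Gm37787* was named for its overlap with *Slamf7* and *Tagln2* also for its position, both after their values were seen. The split of the T-lineage markers into *Cd4*, *Cd28* and the rest was also made after seeing the data. Alternatives were DESeq2 1.42.0 (Wald test), its size factors in edgeR, other filters and fold thresholds, the groups of a comparison alone, a replicate block, and each sample left out in turn. Coordinates and exon lengths came from the GENCODE annotation of GRCm38, and promoters from RefSeq on GRCm38.p6. The annotation was read with Python 3.11.15 and pandas 2.3.3, and plots were drawn with matplotlib 3.10.9.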

Additional observations from a re-analysis of the deposited data

Results flagged for a closer look

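The response to ACs differed between the strains, by the test of the interaction of strain and treatment in edgeR with Benjamini-Hochberg adjustment, for 6 of the 9 members. The log2 response in SjSS minus that in B6 BMDMs was 2.60 for *Slamf7*, 1.45 for *Slamf8*, 1.20 for *Slamf9*, 0.84 for *Cd48*, 0.75 for *Cd244* and 0.53 for *Slamf6*. *Cd48* was the member that rose in one strain and fell in the other. *Slamf6* fell less in SjSS than in B6 BMDMs, and the others rose more.

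The response to CpG differed for 3 members by the same test. The difference was 1.67 for *Cd244*, 0.26 for *Cd48* and -1.18 for *Slamf8*. Of the members that passed both tests, *Slamf8* had differences of opposite sign with the 2 treatments, which share their control samples. With 3 samples per group, no search for single samples far from their group was made.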

How the results depend on the processing

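Under the settings that kept all samples, 516 results for members kept their direction and their side of the adjusted p threshold. A further 11 no longer passed, 9 newly passed, and 4 turned direction. Those 4 belonged to *Slamf1*, whose strain difference with ACs was -0.01 without the filter and -0.06 with the replicate block, and whose interaction with CpG was 0.00 without the filter and 0.01 with the block. Without the fold threshold, 6 members were called with ACs in B6, 8 with ACs in SjSS, 7 with CpG in B6, 6 with CpG in SjSS, 6 between untreated strains, 5 between strains with ACs, 5 with CpG, 6 for the interaction with ACs and 3 for that with CpG, and 30 neighbours between untreated strains. With a log2 change over 2 none was called between untreated strains, 1 for the interaction with ACs and 0 for that with CpG. Spearman's correlation kept 3 of 16 similar genes.

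Leaving out 1 sample gave 0 to 1 members called between untreated strains (0 without B6 control replicate 3 or SjSS control replicate 1). It gave 1 to 3 for the interaction with ACs (1 without either of these) and 1 to 2 for that with CpG (2 without either of these or B6 CpG replicate 1). Directions that turned when 1 sample was left out were those of values that had not passed the test. The largest of these was the CpG response of *Slamf1* in SjSS BMDMs, at 0.30 (SE 0.46). For *Slamf1* the ranges were -0.07 to 0.57 with CpG in SjSS, -0.43 to 0.36 and -0.38 to 0.26 for the interactions with ACs and CpG, and -0.07 to 0.28, -0.35 to 0.44 and -0.29 to 0.35 for the strain differences without treatment, with ACs and with CpG. They were -0.10 to 0.02 for the AC interaction and -0.09 to 0.04 for the untreated strain difference of *Cd84*, 0.00 to 0.05 and -0.11 to 0.05 for the strain differences with CpG of *Cd48* and *Slamf6*, and -0.03 to 0.31 for the CpG interaction of *Slamf7*. The cause was not tested in any of these cases.

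Replicate numbers were not stated to pair samples. Deviations from the group means correlated at 0.02 to 0.264 (median 0.09) for the 18 pairs of the same strain and number, of which 9 were over 0.1. For the 36 pairs of the same strain and different numbers they correlated at -0.252 to 0.074 (median -0.052), and 0 were over 0.1. Samples of 1 number within a strain were thus more alike, and the main fit does not use this. The 27 pairs of the same number across strains correlated at -0.094 to 0.06. With the number as a block over all samples, *Slamf9* with ACs in B6 (adjusted p = 0.0176) and *Slamf8* with CpG in SjSS (0.0269) passed and *Slamf6* with ACs in SjSS (0.0559) did not. With the number within each strain as a block, *Slamf9* with ACs in B6 (0.00307), *Slamf8* with CpG in SjSS (0.0179) and the CpG interaction of *Slamf9* (0.0135) passed. No setting that kept all samples moved the median log2 change of all genes by more than 0.0285. All settings scaled the samples by TMM or by DESeq2's size factors. Both take most genes as unchanged, so a shift shared by most genes would not show. TMM factors were 0.838, 0.834 and 0.833 in AC treated and 1.10, 1.10 and 1.13 in untreated SjSS BMDMs. In B6 BMDMs they were 1.04, 1.02 and 1.02 with ACs and 1.09, 1.06 and 1.09 without treatment. The part of this scaling in the AC responses was not tested. *Slamf1* rested on 7 to 40 counts per sample.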
